A study of Homo sapiens with 2 samples.

Results

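CXCL1, CXCL2, CXCL3, CXCL5, CXCL6 and IL8, the older symbol of CXCL8, are chemokines, small secreted proteins that guide migrating leukocytes. These 6 genes were examined among the 56638 genes of an RNA-seq comparison of TFK1 cells, an established human cholangiocarcinoma (CCA) cell line, after knockdown of MBD2. MBD2 is a protein that binds methylated CpG dinucleotides, and the comparison was made to describe the molecular profile that goes with MBD2 in CCA cells. The genes were chosen by name from the deposited tables, with their read counts in both libraries already known, so the differences given here describe these libraries and support no test. All 6 symbols were found, each in 1 row with its own Ensembl identifier.

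The 2 libraries were 1 of TFK1 cells carrying a shRNA against MBD2 (sh-MBD2) and 1 of the same line with a negative control shRNA (sh-NC), both without further treatment. According to the methods of the study, shRNAs were delivered with lentivirus and the cells were then kept under antibiotic selection, so each library would stand for a selected population and not for a clone. The labels do not say which MBD2 shRNA sh-MBD2 carries. Each condition has 1 library, so the spread between cultures is not known, and all intervals are 95% intervals that cover counting error only. Reads on genes summed to 14728814 in sh-MBD2 and 14467406 in sh-NC. MBD2 itself had 365 counts in sh-MBD2 and 1013 in sh-NC, so that its normalized count in sh-MBD2 was 35.8% of that in sh-NC. The epithelial keratins KRT7, KRT8 and KRT18 were among the strongly expressed genes of both libraries, whereas the biliary keratin KRT19 had only 119 counts in sh-MBD2 and 70 in sh-NC.

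These chemokines carry the amino acids glutamate, leucine and arginine in front of their paired cysteines, bind the receptors CXCR1 and CXCR2 and draw neutrophils to inflamed tissue. IL8 acts on both receptors, and the CXCL1 to CXCL3 group acts mainly on CXCR2. In epithelial cells their genes are weakly transcribed until cytokines such as TNF or IL-1, or microbial products, activate the transcription factor NF-kB. Their mRNAs are short-lived, because AU-rich elements in the 3' end recruit decay factors. Cholangiocytes, the cells that line the bile ducts, are known to release IL8 during biliary inflammation.

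The promoters of the 6 genes are shown because a single short stretch is common to all of them. Each line holds the 140 bases that end just before the RefSeq transcription start, written 5' to 3' on the strand of the gene, with the letters GGAATTTCC in capitals. These letters are the core of a site that NF-kB can bind. The windows are on chromosome 4 of GRCh38.p14, at chr4:73740429-73740568 for IL8, chr4:73869253-73869392 for CXCL1 and chr4:73836538-73836677 for CXCL6 on the plus strand. CXCL2 at chr4:74099196-74099335, CXCL3 at chr4:74038690-74038829 and CXCL5 at chr4:73998678-73998817 are read from the minus strand.
IL8: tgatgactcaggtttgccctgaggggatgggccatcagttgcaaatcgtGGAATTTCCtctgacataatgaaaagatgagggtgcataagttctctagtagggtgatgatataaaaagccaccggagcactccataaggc
CXCL1: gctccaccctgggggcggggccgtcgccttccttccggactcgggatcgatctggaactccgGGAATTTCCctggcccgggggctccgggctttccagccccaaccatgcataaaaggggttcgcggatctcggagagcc
CXCL2: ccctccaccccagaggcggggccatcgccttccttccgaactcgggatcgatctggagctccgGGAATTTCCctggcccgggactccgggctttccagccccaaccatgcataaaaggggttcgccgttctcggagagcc
CXCL3: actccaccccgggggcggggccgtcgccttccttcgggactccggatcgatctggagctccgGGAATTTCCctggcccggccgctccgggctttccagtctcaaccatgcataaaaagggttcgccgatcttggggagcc
CXCL5: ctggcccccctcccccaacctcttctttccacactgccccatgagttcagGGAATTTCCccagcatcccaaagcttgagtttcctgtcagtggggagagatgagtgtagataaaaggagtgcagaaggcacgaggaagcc
CXCL6: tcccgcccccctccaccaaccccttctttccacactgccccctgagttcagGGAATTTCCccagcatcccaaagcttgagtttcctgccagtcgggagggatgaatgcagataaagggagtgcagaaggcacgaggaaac

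GGAATTTCC was present in the promoter window of all 6 genes, counting 250 bases before and 50 bases after the start and searching both strands. The same letters were found in 129 of the 27305 promoters of the RefSeq table, or 0.472%. The match began at position -91 in IL8, -90 in CXCL5, -89 in CXCL6, -78 in CXCL1 and CXCL3 and -77 in CXCL2, counted from the transcription start. It lay on the strand of the gene in every case. In CXCL1, CXCL2, CXCL3, CXCL5 and CXCL6 it was part of the longer run GGGAATTTCC, which IL8 did not have. A looser form, GGNNNTTCC, was also in all 6 and was in 20.1% of all promoters; on both strands it overlaps the stricter match. CXCL1, CXCL2 and CXCL3 held an additional copy of the looser form from -53 to -45, with the letters GGGCTTTCC. The letters of an AP-1 site, TGANTCA, were found only in IL8 among the 6, from -137 to -131, and in 7.76% of all promoters. TTGCNNAA, a form of the C/EBP site, was found only in CXCL2, and TATAAA only in IL8, from -31 to -26, against 10.6% and 11.95% of all promoters. Sites written with other letters are not counted by these patterns, so a promoter without a match may still hold such a site. A match of letters describes the sequence and does not show that a factor was bound in these cells.

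By sequence identity the 6 promoters formed 3 groups. Over the 250 bases before the start, CXCL1 and CXCL3 were 84% identical, CXCL2 and CXCL3 78% and CXCL1 and CXCL2 74.4%, while CXCL5 and CXCL6 were 85.6% identical. Identity between the CXCL1 to CXCL3 promoters and those of CXCL5 and CXCL6 was at most 56%. The IL8 promoter was at most 48% identical to any of the others. Because MBD2 binds methylated CpG, the CG dinucleotides in the 300-base windows were also counted. CXCL3 had 24, CXCL1 and CXCL2 had 22 each, CXCL5 had 9, CXCL6 had 8 and IL8 had 4, against a median of 14 over all promoters and quartiles of 3 and 28. The number of CG dinucleotides ranged from 4 to 24 among genes that were all higher in sh-MBD2. DNA methylation was not measured in these samples.

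CXCL5 was the most abundant of the 6 transcripts in both libraries. It had 20492 counts in sh-MBD2 and 2505 in sh-NC, or 1412 and 177.1 TPM, a level scaled by transcript length and by the total of the library. Ordered by TPM among all genes, it was at place 60 in sh-MBD2 and 713 in sh-NC. Its normalized count was 8.13-fold higher in sh-MBD2 (interval 7.80 to 8.48), the smallest ratio among the 5 genes with reads in both libraries. CXCL5, also called ENA-78, is a neutrophil attractant of epithelial cells, and it was the only one of the 6 above 100 TPM in sh-NC.

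IL8 had the largest ratio of the group. It had 3052 counts in sh-MBD2 and 27 in sh-NC, or 313 and 2.84 TPM. The normalized count was 112-fold higher in sh-MBD2, and because sh-NC held only 27 reads the interval ran from 77.1 to 171. By log2FC, the log2 ratio of normalized counts in sh-MBD2 over sh-NC, IL8 was at place 7 of the 17545 genes with at least 10 counts over both libraries. Its level in sh-NC was the lowest of the 5 genes detected there, and in sh-MBD2 it was above CXCL2 and CXCL3.

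CXCL1, CXCL2 and CXCL3, first described as growth-related oncogenes, lay between these genes. CXCL1 had 3364 counts in sh-MBD2 and 166 in sh-NC, or 536 and 27.2 TPM, a 20.1-fold difference (interval 17.2 to 23.7). CXCL2 had 791 and 56 counts, or 114 and 8.25 TPM, a 14.0-fold difference (interval 10.7 to 18.8). CXCL3 had 745 and 65 counts, or 79.4 and 7.11 TPM, an 11.4-fold difference (interval 8.83 to 14.9). All 3 were thus low to moderate in sh-NC and more than 8-fold higher in sh-MBD2 even at the lower end of the interval. These genes are close paralogs, and their coding sequences were 93.5% (CXCL1 and CXCL2), 90.7% (CXCL1 and CXCL3) and 94.4% (CXCL2 and CXCL3) identical in GENCODE 29. Reads could therefore be assigned to the wrong copy, and the read length is not given in the sources used here. In the reference transcripts, 5.73% of the 50-base windows of CXCL1 were also in CXCL2 and 5.26% of those of CXCL3 were in CXCL2, but none of the 3 pairs shared an exact window of 100 bases. Summed over the 3 genes, which removes the question of assignment among them, there were 4900 counts in sh-MBD2 and 287 in sh-NC, a 17.0-fold difference (interval 15.1 to 19.2).

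CXCL6, or GCP-2, was barely detected. It had 11 counts in sh-MBD2, or 1.12 TPM, and none in sh-NC. Against a floor of 3 counts in sh-NC it was at least 3.64-fold higher, a bound that leaves out the counting error of the 11 reads. CXCL6 reached the minimum of 10 counts only through sh-MBD2, while the other 5 genes reached it in sh-NC alone. Its coding sequence was 87.5% identical to that of CXCL5, and the transcripts of the pair shared no exact window of 50 bases. Exact windows do not cover reads aligned with mismatches. Whether some of the 11 reads came from the far more abundant CXCL5 was not tested. CXCL6 had 0.0387% of the reads of the 6 genes in sh-MBD2, so it hardly contributes to their sum.

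**Figure D1:**
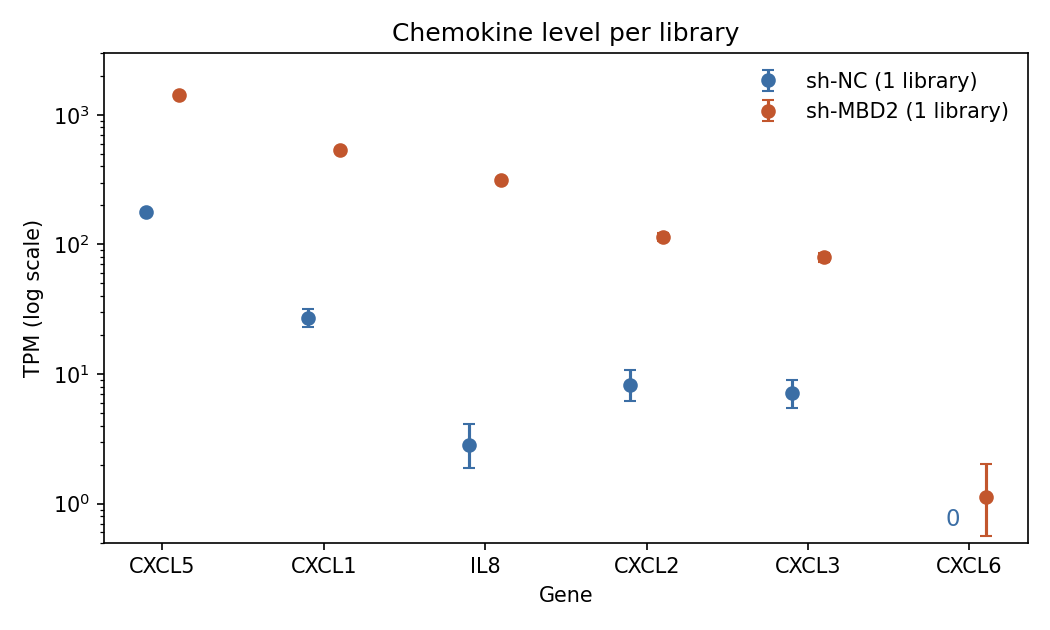
Level of the 6 chemokine transcripts in TPM (log axis) in the sh-NC and sh-MBD2 libraries, 1 library each, with 95% Poisson counting intervals as bars. Every gene was higher in sh-MBD2, from 1.12 TPM for CXCL6, marked 0 in sh-NC, to 1412 TPM for CXCL5.

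The order of the genes by level was not the same in both libraries. In sh-MBD2 the order from high to low was CXCL5, CXCL1, IL8, CXCL2, CXCL3 and CXCL6, and the ratio of each gene to the next excluded 1 by its counting interval. The closest neighbors there were CXCL2 and CXCL3, whose ratio in TPM was 1.43 (interval 1.29 to 1.58). In sh-NC the order was CXCL5, CXCL1, CXCL2, CXCL3 and IL8, with CXCL6 at 0. CXCL2 and CXCL3 could not be separated in sh-NC, with a ratio of 1.16 and an interval from 0.797 to 1.69. CXCL3 was 2.50-fold above IL8 in sh-NC (interval 1.57 to 4.08), whereas IL8 was 2.76-fold above CXCL2, and so further above CXCL3, in sh-MBD2 (interval 2.55 to 2.98).

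All 6 genes had a log2FC above 1, compared with 5.48% of the 17545 genes tested, while 5.07% of all genes were below -1. Since the genes were picked with these values known, the count of 6 is a description. In the 5 genes with reads in both libraries log2FC ranged from 3.02 for CXCL5 to 6.79 for IL8. The fitted 4.52 of CXCL6 depends on the prior count added to its 0 reads in sh-NC, and its interval began at 1.32. The median of the 6 was 4.06, or 3.65 with CXCL6 placed at its lower bound, and the median over all genes tested was -0.0082. The sizes of the differences were unequal beyond counting error. The fold of IL8 was 5.58 times that of CXCL1 (exact interval 3.69 to 8.74), the fold of CXCL1 was 1.44 times that of CXCL2 (interval 1.03 to 1.97) and the fold of CXCL3 was 1.40 times that of CXCL5 (interval 1.08 to 1.84). The folds of CXCL2 and CXCL3 were not separated, with a ratio of 1.23 and an interval from 0.836 to 1.82.

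Together the 6 genes had 28455 counts in sh-MBD2 and 2819 in sh-NC, a 10.03-fold difference (interval 9.65 to 10.4). In TPM this was 2456 and 222.5, or 0.246% and 0.0223% of all transcripts. CXCL5 made up 57.5% of the summed TPM in sh-MBD2 and 79.6% in sh-NC. IL8 went the other way, with 12.7% in sh-MBD2 and 1.28% in sh-NC, and CXCL1 had 21.8% and 12.2%. CXCL2 and CXCL3 kept similar shares, at 4.62% and 3.71% for CXCL2 and 3.23% and 3.19% for CXCL3. Of the gain of 2233 TPM, CXCL5 accounted for 55.3%, CXCL1 for 22.8% and IL8 for 13.9%. CXCL5, with the smallest fold of the 5 genes with reads in both libraries, thus added the most transcripts. Without CXCL5, the other 5 genes had 7963 and 314 counts, a 25.2-fold difference (interval 22.5 to 28.3).

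**Figure D2:**
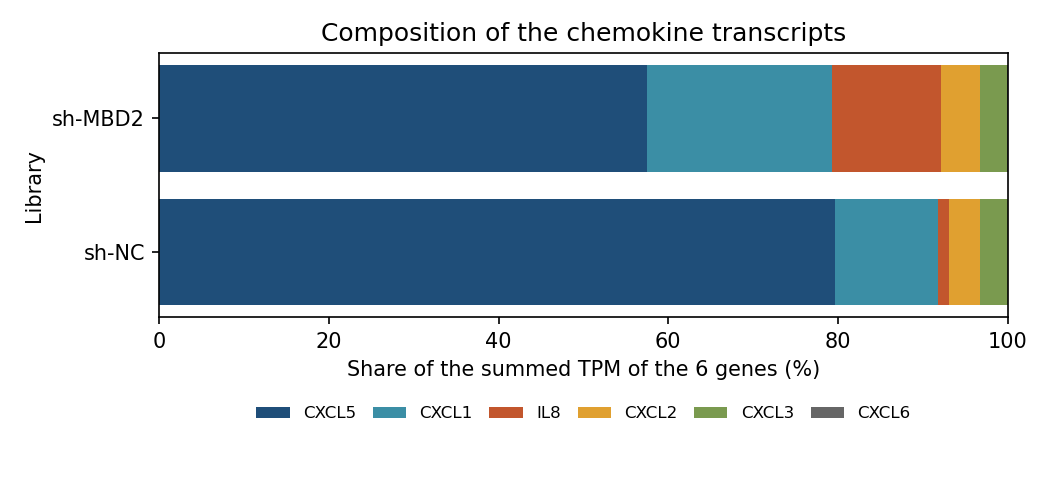
Share of each gene in the summed TPM of the 6 chemokines, in percent, in the sh-NC and sh-MBD2 libraries. CXCL5 is the largest part of both bars, and the part of IL8 is 1.28% in sh-NC and 12.7% in sh-MBD2.

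The 6 genes lie in a cluster on chromosome 4. In the deposited tables it runs from 74606223 to 74965010, or 358.8 kb, with IL8 first, followed by CXCL6 and CXCL1 on the plus strand and CXCL5, CXCL3 and CXCL2 on the minus strand. The tables name no build. Every start and end of the 6 genes was 865717 bases higher than in GENCODE 29 (GRCh38), although the submitters' processing notes name GRCh38.p13. Of the 10 other genes inside the cluster, 6 had no reads in either library and only PPBP reached 10 counts. PPBP, the precursor of the platelet chemokine CXCL7, had 11 counts in sh-MBD2 and 1 in sh-NC, a 10.9-fold ratio with an interval from 1.59 to 471. PF4, another platelet chemokine, had 1 count and none, and PF4V1 had none in either library. In sh-MBD2, 5 genes of the cluster were thus at 79.4 TPM or more, while PPBP was at 2.69 TPM and CXCL6 at 1.12 TPM. This separates the genes by level only. The ratio of PPBP, on few reads, was within the range of the 5, from 8.13 to 112. The other genes between them had too few reads to compare the libraries.

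Within 500 kb of the cluster, 8 other genes reached 10 counts, with a median log2FC of 0.057. MTHFD2L, a mitochondrial folate enzyme that starts 373.7 kb from IL8 and is the next gene after CXCL2, had 167 counts in each library (log2FC -0.0088, interval -0.33 to 0.31). RASSF6, on the other side of IL8, had 149 counts in sh-MBD2 and 170 in sh-NC, and ANKRD17, farther out, had 2354 and 2149. Besides PPBP, only EREG had a log2FC above 1. EREG, which encodes the EGFR ligand epiregulin, had 1541 and 705 counts (log2FC 1.12, interval 0.99 to 1.25), and AREG, a related ligand beside it, had 54 and 67 counts (log2FC -0.32, interval -0.86 to 0.22). The RNA RP11-692D12.1, with 1 count in sh-MBD2 and 9 in sh-NC, was the only one below -1 (interval -8.63 to -0.33). The remaining gene, AC142293.3, had 7 and 5 counts.

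**Figure D3:**
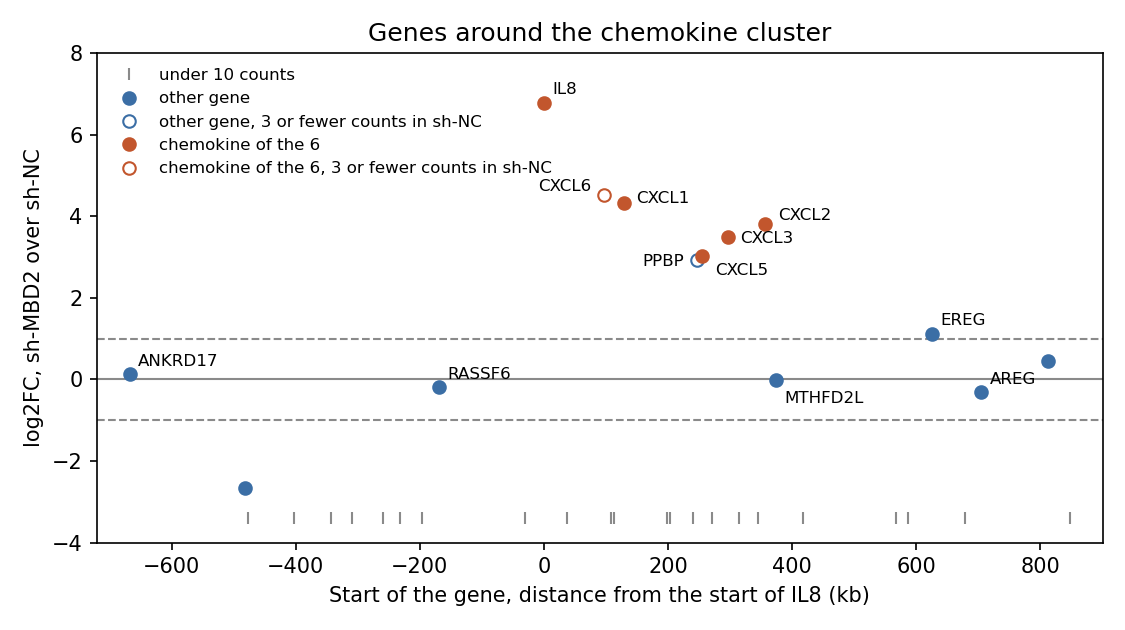
Log2FC of the genes within 500 kb of the chemokine cluster against the start of each gene, in kb from the start of IL8, with open points for genes at 3 or fewer counts in sh-NC and ticks for genes under 10 counts. The chemokines lie between 3.02 and 6.79 as fitted, while MTHFD2L and RASSF6 on the sides of the cluster lie near 0.

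Among the other CXC chemokines, 3 of 11 reached 10 counts. CXCL16, a membrane-bound chemokine, had 242 counts in sh-MBD2 and 282 in sh-NC (log2FC -0.23, interval -0.48 to 0.023). CXCL10, an attractant of T cells, had 11 counts and none, 3.64-fold higher against the floor of 3 counts (log2FC interval from 1.32). PPBP was the third gene. CXCL9, CXCL12, CXCL13 and PF4V1 had no reads in either library. In TPM the whole list of 11 summed to 24.2 in sh-MBD2 and 23.3 in sh-NC, far below the 6 neutrophil-attracting genes in either library.

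The receptors for these chemokines were at the limit of detection. CXCR1 had no reads in either library, which allows up to 3 counts at this depth, and CXCR2 had 1 count in sh-MBD2 and none in sh-NC. DARC, the table's name for ACKR1, which binds and clears several of these chemokines, had none in either. Of the 8 receptors only ACKR3, a scavenging receptor for CXCL12, reached 10 counts, with 33 and 28 (log2FC 0.22, interval -0.54 to 1.01).

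Genes that control transcription of these chemokines tended to be higher in sh-MBD2, most by smaller amounts. All but TNFAIP3, which was above CXCL2, CXCL3 and CXCL5, had a log2FC below the 3.02 of CXCL5. All 16 transcription factors and NF-kB inhibitors had at least 10 counts and a log2FC above 0, 7 of them above 1, with a median of 0.73. Over all genes tested, 5.48% were above 1 and the median was -0.0082. TNFAIP3, a feedback inhibitor of NF-kB, had 1571 counts in sh-MBD2 and 81 in sh-NC (log2FC 4.26, interval 3.95 to 4.61). RELB, a subunit of NF-kB, had 473 and 79 (log2FC 2.57, interval 2.23 to 2.94). RELA, the subunit best known for driving IL8, had 1141 and 938 (log2FC 0.27). At the lower end of the list were JUNB with 554 and 537 counts (log2FC 0.036) and BCL3 with 1700 and 1449 (log2FC 0.22). The direction of JUNB was within its counting interval, from -0.14 to 0.21.

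The 10 factors that act on decay or stability of such mRNAs had a median log2FC of 0.24. Of these, 1 gene was above 1 and none below -1, where 5.48% of all genes tested were above 1. The gene above 1 was ZC3H12A, an endonuclease that degrades inflammatory mRNAs, with 968 counts in sh-MBD2 and 309 in sh-NC (log2FC 1.64, interval 1.45 to 1.83). ZFP36, which binds AU-rich elements, had 301 and 302 counts (log2FC -0.014). Its relative ZFP36L1 had 3109 counts in sh-MBD2 and 1830 in sh-NC (log2FC 0.76, interval 0.67 to 0.84). ZFP36L2, of the same family, was lowest with 838 and 1427 (log2FC -0.78, interval -0.90 to -0.65), and MAPKAPK2 had 900 and 971 (log2FC -0.12). ARID5A, which stabilizes inflammatory mRNAs, had 48 and 28 (log2FC 0.76, interval 0.067 to 1.496). In GENCODE 29 the 3' UTRs of the chemokines held between 5 copies of ATTTA, the core of an AU-rich element, in CXCL1 and 11 in CXCL5, with 6 in CXCL6, 7 in CXCL3, 9 in IL8 and 10 in CXCL2. Per kb of 3' UTR this was 5.36 to 13.9, against a median of 1.20 over 20354 coding genes, with CXCL6 lowest and CXCL2 highest. CXCL5, which has the longest of the 6 transcripts, had 5.51 copies per kb, and IL8 had 7.19.

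Of the 15 inducers and receptors that act upstream of these chemokines, 11 reached 10 counts, with 4 above 1 and none below -1 and a median log2FC of 0.70, where 5.48% of all genes tested were above 1. The 4 genes above 1, TNF, IL1B, TLR2 and IL1A, reached 10 counts only through sh-MBD2. Neither their count nor the median, which includes them, is therefore support for a difference. Among the genes that reached 10 counts in sh-NC alone, log2FC ranged from -0.70 for IL1R1 to 0.88 for TLR4. TNF had 27 counts in sh-MBD2 and none in sh-NC, 8.94-fold higher against the floor of 3 counts (log2FC interval from 2.76). IL1B had 24 and 1 (ratio 23.9, interval 3.89 to 981). In sh-MBD2 TNF and IL1B were at 2.82 and 2.57 TPM, above CXCL6 and below the other 5 chemokines. The receptors did not share a direction. TLR2, a receptor for bacterial lipoproteins, had 13 and 1 counts (ratio 12.9, interval 1.94 to 549), while IL1R1, the IL-1 receptor, had 874 and 1411 (log2FC -0.70, interval -0.82 to -0.58). TNFRSF1A, the main TNF receptor of epithelial cells, had 5152 and 5481 (log2FC -0.098, interval -0.15 to -0.043), and TLR5, for flagellin, had 23 and 33 (log2FC -0.52, interval -1.36 to 0.28). IL17A and IL17C had no reads in either library.

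Other products linked to neutrophils were compared as well. Of 10 such genes, 7 reached 10 counts, 6 of them with a log2FC above 1, where 5.48% of all genes tested were above 1. Of these 6, SAA1, SAA2, IL6 and CSF3 reached 10 counts only through sh-MBD2, so their count is no support for a difference. LCN2, CSF1 and LIF reached it in sh-NC alone and were higher in sh-MBD2. The median of all 7 was 3.96. It was 3.69 once SAA1, SAA2 and IL6, which had no reads in sh-NC, were set to their bounds. Both medians include SAA1, SAA2, IL6 and CSF3, which passed only through sh-MBD2, so they are no support for a difference either. The acute-phase protein SAA1 had 94 counts and none, and IL6 had 39 and none. Against the floor of 3 counts they were 31.1-fold and 12.9-fold higher, and their log2FC intervals began at 4.63 and 3.325. LCN2, which withholds iron from bacteria, had 1920 and 122 (log2FC 3.96, interval 3.70 to 4.24). At the lower end, CSF1, a macrophage growth factor, had 1024 and 428 counts (log2FC 1.25, interval 1.09 to 1.42) and LIF 1654 and 1288 (log2FC 0.35, interval 0.25 to 0.46).

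Markers of cells that could bring such transcripts into a culture were compared between the libraries. Of 11 neutrophil and myeloid markers, 5 had no reads in either library, and PTPRC, CSF3R and TYROBP had none in sh-MBD2 and 1 each in sh-NC. ITGAM had 50 counts in sh-MBD2 and 38 in sh-NC, and ELANE had 5 and 11. Summed over the 11 markers the level was 16.8 TPM in sh-MBD2 and 15.7 TPM in sh-NC, of which CD14, which epithelial cells can also express, had 14.1 TPM in sh-MBD2. Of 6 fibroblast markers, COL1A1 had 308 and 124 counts and the others at most 6 in either library, and the 6 summed to 8.42 and 3.98 TPM. The 3 endothelial markers had no reads in sh-MBD2. Among them, the PECAM1 row lay on a patch sequence of the assembly and not on a chromosome, so its lack of reads may not reflect its expression. Of 4 platelet markers GP9 and TREML1 had no reads in either library. The other platelet markers were detected in both, GP1BA with 124 counts in sh-MBD2 and 146 in sh-NC and ITGA2B with 43 and 55. The 7 epithelial and biliary markers were all between -1 and 1, with a median log2FC of -0.36. In bulk RNA, more cells that express a gene and more RNA per cell cannot be told apart.

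The letters GGAATTTCC were also looked for in other genes. A RefSeq promoter was found by symbol for 10675 of the 17545 genes tested. Apart from the 6 chemokines, 41 of these held the letters, of which 7, or 17.1%, had a log2FC above 1 and none had one below -1. Among the 10628 other genes without them, 4.07% were above 1 and 3.21% below -1. The median log2FC was 0.083 with the letters and 0.0085 without, so most genes that held them differed little between the libraries. Those above 1 included NFKBIZ, NFKBIA and NFKB1, regulators of NF-kB, at 1.49, 1.36 and 1.17, and DUSP6, a phosphatase of ERK, at 1.35. The other 3 had no reads in sh-NC and so passed the minimum through sh-MBD2 alone: ICAM1, an adhesion molecule that neutrophils bind, with 187 counts, TNFRSF9 with 73 and CXCL10 with 11. The 17.1% includes these 3, so its distance from 4.07% is a description and supports no difference. REL, which also held the letters, was at 0.32. Of the 9 other CXC chemokines with a promoter in the table, CXCL10 and CXCL11 held them, and CXCL11 had 2 counts in sh-MBD2 and none in sh-NC.

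Genes whose levels were nearest to each chemokine were found by the distance between genes in log2(TPM + 0.1) over the 2 libraries, which are only 2 points for each gene. Nearest to CXCL1 were C3, the central complement protein, at 456 TPM in sh-MBD2 and 39.6 in sh-NC (distance 0.592), and LCN2 (distance 0.943). CCL2, a monocyte attractant, was nearest to both CXCL2 (distance 0.947) and IL8 (distance 1.27), with 207 and 6.30 TPM. The next after it were ASS1, an enzyme of arginine synthesis, for CXCL2 and CFB, complement factor B, for IL8 (distance 2.02). IRAK2, a kinase of IL-1 receptor signaling, was nearest to CXCL3, with 44.2 and 5.72 TPM (distance 0.899), followed by the RNA AC009299.5 (distance 0.991). Nearest to CXCL5 were TNFAIP2, with 531 and 254 TPM, and KYNU, an enzyme of tryptophan breakdown, with 714.5 and 406 TPM (distance 1.55). Both had a smaller log2FC than CXCL5, at 1.09 and 0.84. The genes nearest to CXCL6, C15orf62 with 16 counts and LINC00704 with 10, also had no reads in sh-NC.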

How the data were processed

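RNA of TFK1 cells with sh-MBD2 or sh-NC was sequenced, 1 library each. The authors deposited read counts for each gene, together with TPM values, which are used here as a deposited signal. The submitters' processing notes name fastp, HISAT2 2.1.0, featureCounts, DESeq 1.18.1 and GRCh38.p13. Strandedness and read length are not given in the sources used here. Both tables hold 63677 rows with an Ensembl identifier and 46 lines without a gene, which were dropped. Rows that repeated both a symbol and its values were kept once, leaving 56638 genes, among which a symbol with different values can still occur more than once.

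Counts were scaled by TMM (edgeR 4.0.16, R 4.3.3). Log2FC was taken after adding a prior of 0.5 counts for the 17545 genes with at least 10 counts over both libraries. Intervals (95%) are Clopper-Pearson (exact) for how a gene's reads divide between the libraries, conditional odds ratio intervals for ratios of folds, and Poisson intervals for single counts (scipy 1.17.1). PCR duplicates could not be identified, so they cover counting error only. Without replicates no test across genes was made, so edgeR served for scaling alone, with DESeq2 1.42.0 size factors as an alternative. Genes without reads in sh-NC were set against 3 counts, a bound that leaves out the counting error of the reads in sh-MBD2. The calculation was tested on simulated counts. Promoters are from RefSeq (GRCh38.p14) and transcripts from GENCODE 29, aligned with Biopython 1.88.

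The members and gene lists were chosen with earlier results of these data known, and the motifs from what is known of these promoters. Named genes are the 6 chemokines, MBD2, genes of the lists (the 2 highest and 2 lowest with at least 10 counts by value), tested genes within 500 kb of the cluster and the 2 genes nearest to each chemokine. ICAM1, TNFRSF9, DUSP6, and list genes given by value outside this rule, were named after their values were seen.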

Additional observations from a re-analysis of the deposited data

How the results depend on the processing

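The log2FC of the 6 chemokines was compared under 8 alternatives to the TMM scaling, the prior count and the choice of rows, and with CXCL1, CXCL2 and CXCL3 summed. With these paralogs summed, the values of CXCL5, CXCL6 and IL8 equal the main values by construction and could not move. Of the 51 values, these included, 50 lay within the counting interval of the gene and none changed sign. The exception was CXCL6, at 1.08 with log2 of TPM plus 1; over the alternatives CXCL6 ranged from 1.08 to 6.79, CXCL1 from 4.25 to 4.34, CXCL2 from 3.63 to 3.82, CXCL3 from 3.31 to 3.52, CXCL5 from 2.99 to 3.04 and IL8 from 6.35 to 6.81. The median of 4.06 was 3.69 with log2 of TPM plus 0.1, 3.47 with log2 of TPM plus 1 and 3.62 with a prior count of 2, settings that pull the low gene CXCL6 towards 0. The 10.03-fold difference of the summed counts was 11.04-fold in summed TPM, which weights reads by transcript length. The 961 genes with a log2FC above 1 became 374 with log2 of TPM plus 1, 4523 with at least 1 count and 213 with at least 100 counts, where fewer or more genes are tested or low genes are pulled towards 0; with at least 100 counts CXCL6 is not tested. By counts in place of TPM, which do not allow for transcript length, CXCL5 made up 72.0% of the 6 genes in sh-MBD2 and 88.9% in sh-NC, CXCL1 11.8% and 5.89%, CXCL2 2.78% and 1.99%, CXCL3 2.62% and 2.31%, and IL8 10.7% and 0.958%. No paired analysis was possible because sh-MBD2 and sh-NC are 1 library each. No library could be left out for the same reason, and variation between cultures was not measured.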
